A study of Mus musculus with 18 samples.

Results

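The average effect of ezrin loss was measured over 3 lung macrophage populations. All 18 libraries of the series were members, 9 from *Ezr*-KOm mice, labelled EzKO, and 9 from WT mice. They were chosen by genotype alone and fell into 6 groups of 3. Monocyte-derived macrophages (moMs) were sorted as CD45+CD11b+MHC-II-Ly6C+ cells. Transitional interstitial macrophages (tnsIMs, labelled trIM) were CD45+CD11b+MHC-II+Ly6C+, and mature interstitial macrophages (matIMs) were CD45+CD11b+MHC-II+Ly6C-. *Ezr*-KOm mice were B6.Ezrin fl/fl crossed to Cx3cr1tm1.1(cre)Jung/J, and WT mice carried the same Cre without the floxed *Ezr* allele. Both genotypes were on C57BL/6, were 3 to 5 months old and of both sexes, and had inhaled nebulized Pseudomonas aeruginosa LPS (12.5 mg in 5 ml over 15 min) 24 h before the sort. The Cre is driven by the *Cx3cr1* promoter, which the study also found weakly active in classical dendritic cells, eosinophils and NK cells.

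Ezrin is one of the 3 ERM proteins, with moesin (*Msn*) and radixin (*Rdx*), which link the plasma membrane and its receptors to cortical actin. The ERM proteins open on phosphorylation, bind membrane proteins such as CD44 and podoplanin, and take part in adhesion and in signaling through FAK and PI3K. LPS acts through TLR4 and drives monocytes in the lung to make cytokines and interferon-stimulated genes.

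The total count per library ran from 16512783 to 48460995, with a median of 24086623, and the normalization factors lay between 0.93 and 1.07. Libraries of the 2 genotypes that carried one replicate number deviated together within each population (r from 0.102 to 0.316 across genes, against at most 0.0508 for unlike numbers), and so did the populations of one genotype and number (0.0905 to 0.397, against at most 0.0316). Deviations were taken from the mean of each group, so a positive r for like numbers brings a lower r for unlike ones. Each gene was fitted once over the 18 libraries with the population, the replicate number and the genotype as terms. The genotype term is the average effect given here as a log2 fold change of *Ezr*-KOm against WT. A gene is called where its Benjamini-Hochberg adjusted p in edgeR's quasi-likelihood test was under 0.05. The study reports fewer mice than libraries per genotype, so libraries of a genotype share mice. Which libraries share a mouse is not stated, and those of like number may do so. The p-values and SEs treat all libraries as separate samples, so they rest on more samples than there were mice. Fits on libraries summed per genotype and number, given below, avoid this if like numbers mark the same mouse.

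*Ezr* itself (chr17:7005440-7050183, minus strand) was lower in *Ezr*-KOm in every population. In moMs it was at 503, 593 and 497 CPM, the read count scaled to library size, in the WT libraries and at 282, 160 and 252 in *Ezr*-KOm. In tnsIMs it was at 679, 515 and 565 against 234, 126 and 213, and in matIMs at 741, 632 and 611 against 167, 93.8 and 144. No *Ezr*-KOm library reached the lowest WT library of any population. The average log2 fold change was -1.74 ± 0.15 (SE, n = 9 libraries per genotype, adjusted p = 1.85e-07 in edgeR). Within moMs it was -1.26, within tnsIMs -1.65 and within matIMs -2.33, and the test of the difference between populations gave an adjusted p of 1.00 (unadjusted 0.00212). The other ERM genes did not pass the test. *Msn* ran from 2144 to 2627 CPM in WT and from 1943 to 2902 in *Ezr*-KOm (log2 fold change 0.00, SE 0.07, adjusted p = 0.994 in edgeR), and *Rdx* from 61.2 to 83.8 and from 64.2 to 93.7 (0.09, SE 0.08, adjusted p = 0.734).

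**Figure D1:**
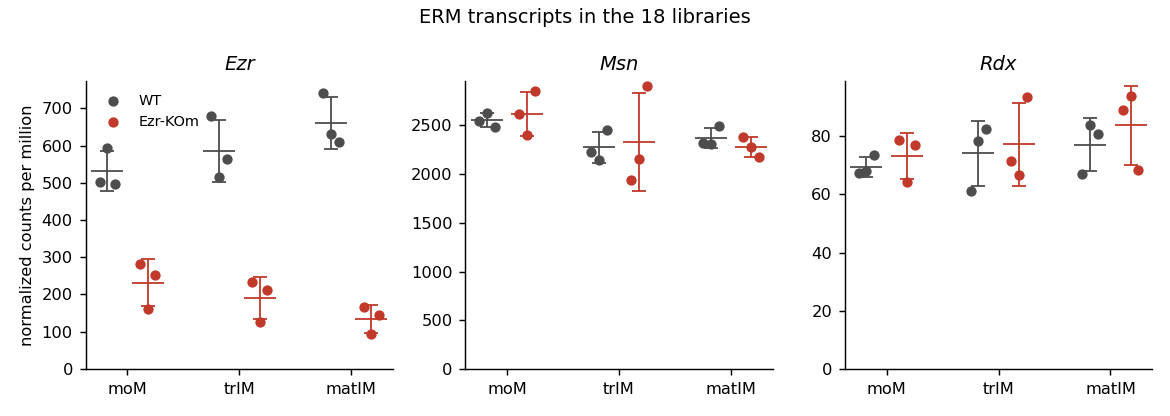
Normalized read counts (CPM) of Ezr, Msn and Rdx (vertical axes from 0) in each of the 18 libraries, by population (horizontal axis) and genotype (grey WT, red Ezr-KOm); points are libraries, and bars with caps are the mean and SD of 3. Ezr lies below the lowest WT library in every Ezr-KOm library, while Msn and Rdx overlap between the genotypes in each population.

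Of 15811 genes tested, 276 were called (1.75%), 156 higher and 120 lower in *Ezr*-KOm. The study's criteria, a log2 fold change beyond 0.75 in size at an unadjusted p under 0.05, were met by 380 genes (2.4%). The calls were unevenly spread over the genome. The interval of 0 to 30 Mb on chromosome 17, around *Ezr*, had 54 of 297 tested genes called (18.2%), 21 higher and 33 lower. Between 130 and 160 Mb of chromosome 4, 41 of 326 were called (12.6%), 13 higher (3.99%) and 28 lower (8.59%). These intervals were set with earlier results of these data known, so their shares are descriptions. Outside both, 181 of 15188 tested genes were called (1.19%), 122 higher (0.803%) and 59 lower (0.388%). The median size of a called change was 0.63 outside the intervals, 0.97 in the chromosome 17 interval and 1.00 in that of chromosome 4. Genotypes did not overlap in any of the 3 populations for 0.576% of all genes tested. They did not for 46 genes outside (0.303% of those tested there), 28 in the chromosome 17 interval (9.43%) and 17 in the chromosome 4 interval (5.21%). Of these, 37, 28 and 17 were called. The calls were made on these same libraries, which favours a lack of overlap among them. Whether a called gene follows the loss of ezrin or DNA inherited with the floxed allele cannot be told apart in this design.

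**Figure D2:**
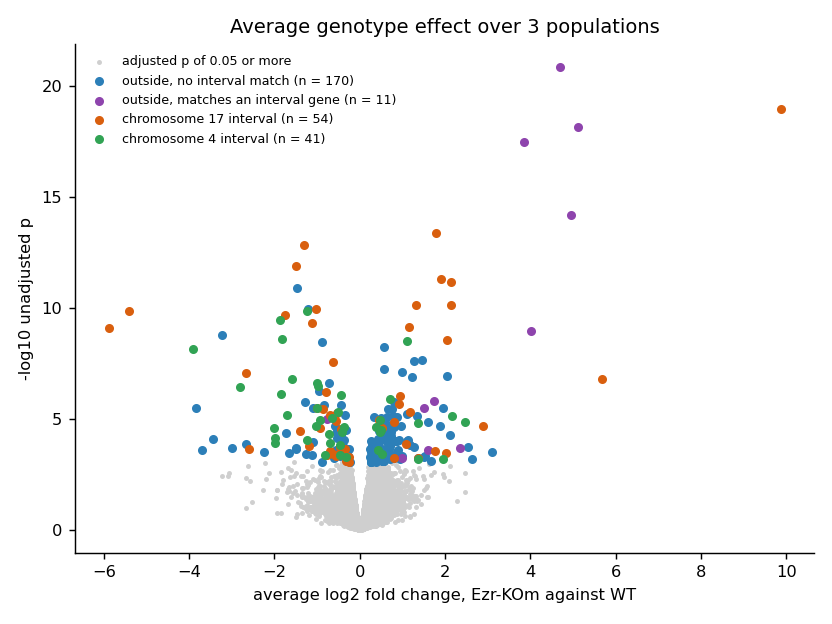
Average log2 fold change of Ezr-KOm against WT (horizontal axis) and -log10 of the unadjusted p (vertical axis) for the 15811 genes tested; coloured points are the 276 called genes and grey points the others. Outside genes that match no interval gene (170) sit mostly within 2 log2 units of 0, while the 11 that match one include 5 at 3.86 to 5.11.

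The average was not shown to differ between populations. The test of genotype by population called 0 of 15811 genes in edgeR (290 at an unadjusted p under 0.05, 1.83%) and 0 in DESeq2 (360 unadjusted). Of the 181 genes called outside the intervals, 177 had one sign in all 3 populations. They were chosen on the average over these populations, which favours one sign, so this count cannot show that the populations agree. Tested in one population at a time, 22 of the 181 were called in at least one and 10 in every one. A test within moMs called 42 of all genes (0.266%), within tnsIMs 34 (0.215%) and within matIMs 38 (0.24%).

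The size of the call outside the intervals depended on the fit and on the replicate numbers. Without the replicate block 84 genes were called there and 157 in all. With the 3 libraries of one genotype and number summed, so that 3 sums stood against 3, 9 were called there, 15 in the chromosome 17 interval and 6 in the chromosome 4 interval, or 12, 16 and 5 with the block. Without number 3 the outside count was 73, without number 1 it was 126 and without number 2 it was 238. *Kcnn4*, *Ercc1*, *Ptx3* and 5 near-identical copies of interval genes were the outside genes called in both summed fits.

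The 4 outside genes with the smallest p were copies of genes inside the intervals. Of the 15188 genes tested outside, 101 (0.665%) had a transcript that matched an interval gene over at least 80% of its length at 90% identity or more, and of the 181 called, 11 did (6.08%). Of the 101, 10 were higher and 1 was lower in *Ezr*-KOm (10.9% called), against 1.13% of the 15087 without a match. *Atp6v0c-ps2* (chr6:37783021-37783485, plus strand) is a processed pseudogene of *Atp6v0c* (chromosome 17 interval), which encodes the proteolipid subunit of the V-ATPase proton pump. In moMs it was at 2.39, 3.56 and 2.52 CPM in WT and at 82.1, 85.8 and 69.8 in *Ezr*-KOm. In tnsIMs the values were 3.5, 2.73 and 3.64 against 90.9, 82.7 and 80.3, and in matIMs 2.7, 2.18 and 2.65 against 66, 53 and 67.5. No library of one genotype came near the range of the other, and the log2 fold change was 4.70 ± 0.10 (SE, n = 9, adjusted p = 2.2e-17 in edgeR). *Atp6v0c* moved the other way, from 307 to 437 CPM in WT to between 89.8 and 177 in *Ezr*-KOm (log2 fold change -1.49, adjusted p = 2.57e-09 in edgeR).

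The same opposite pair was seen for *Rnps1*, an exon junction and splicing factor of the chromosome 17 interval. *Rnps1* was at 62.8 to 83.9 CPM in WT and 26.2 to 36.8 in *Ezr*-KOm (-1.30, adjusted p = 3.32e-10 in edgeR). Its copy *Rnps1-ps* (chr6:7982541-7983383) was at 0.167 to 0.798 in WT and 15.4 to 19.8 in *Ezr*-KOm (5.11, adjusted p = 3.81e-15). *Hmga1b*, a copy of the chromatin protein gene *Hmga1*, rose by 4.96 (adjusted p = 1.96e-11 in edgeR; 0.207 to 0.897 CPM in WT, 5.47 to 26.9 in *Ezr*-KOm), and *Hmga1* fell by 0.47 on the log2 scale (adjusted p = 0.0185). *Eno1b*, a copy of the glycolytic enolase gene *Eno1* on chromosome 4, rose by 3.86 (adjusted p = 1.32e-14 in edgeR), with *Eno1* at -0.42 (adjusted p = 0.0507). *Gm14292*, a copy of *Wtap*, a subunit of the RNA methyltransferase complex, rose by 4.02 (adjusted p = 7.47e-07 in edgeR), with *Wtap* at -0.23 (adjusted p = 0.24). *Gm10036* (copy of *Rpl11*) rose by 1.75, and *Gm5855* (copy of *Eno1*) rose from a mean of 0.997 to 3.02 CPM. *Gm6724* (copy of *Hmgn2*) rose by 2.35, from a mean of 0.15 to 0.646 CPM. *Nudc-ps1* (copy of *Nudc*) rose by 1.60, from 1.8 to 4.34 CPM, and was higher in 8 of 9 pairs. *Dynlt1-ps1*, a copy of *Dynlt1c*, rose by 0.99, from 0.479 to 0.929 CPM. *Mpc1-ps* was the copy that fell, by 0.76, and its parent *Mpc1* fell by 0.69.

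The copies and their parents are nearly one sequence, which is why windows of 51 bases, in the coding sequence of the parent, are shown here for 3 pairs, read from the GRCm39 transcripts of Gencode M39 and written 5′ to 3′ on the strand of the transcript. Capitals mark the bases at which copy and parent differ, given as the parent's base, the position counted from 1 at the 5′ end of the copy's transcript, and the copy's base. *Atp6v0c-ps2* and *Atp6v0c* differ at 1 of 465 aligned bases, T111C.
Atp6v0c-ps2: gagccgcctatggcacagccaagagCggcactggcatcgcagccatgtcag
Atp6v0c: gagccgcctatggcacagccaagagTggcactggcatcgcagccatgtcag
The first window is chr6:37783106-37783156 on the plus strand and the second chr17:24383800-24383850 on the minus strand, in an exon. *Rnps1-ps* and *Rnps1* differ at 5 of 843 aligned bases, the first of them C171A.
Rnps1-ps: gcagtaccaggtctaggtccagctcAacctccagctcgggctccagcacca
Rnps1: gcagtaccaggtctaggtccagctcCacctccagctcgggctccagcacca
The window of *Rnps1-ps* is chr6:7983188-7983238 on the minus strand, and that of *Rnps1* spans an exon junction. *Gm14292* and *Wtap* differ at 3 of 456 aligned bases, of which A249G and C273T lie in the window.
Gm14292: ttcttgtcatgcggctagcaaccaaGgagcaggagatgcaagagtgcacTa
Wtap: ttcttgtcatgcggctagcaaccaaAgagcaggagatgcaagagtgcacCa
The window of *Gm14292* is chr2:178819441-178819491 on the plus strand. *Hmga1b* differs from *Hmga1* at 3 of 1602 aligned bases, none of them in the coding sequence of *Hmga1*. A read that covers none of these bases matches copy and parent equally. The authors counted reads in STAR's GeneCounts mode, and how such reads bear on the levels was not tested. The levels of a copy and its parent are thus uncertain one against the other, and the kit did not mark strand.

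**Figure D3:**
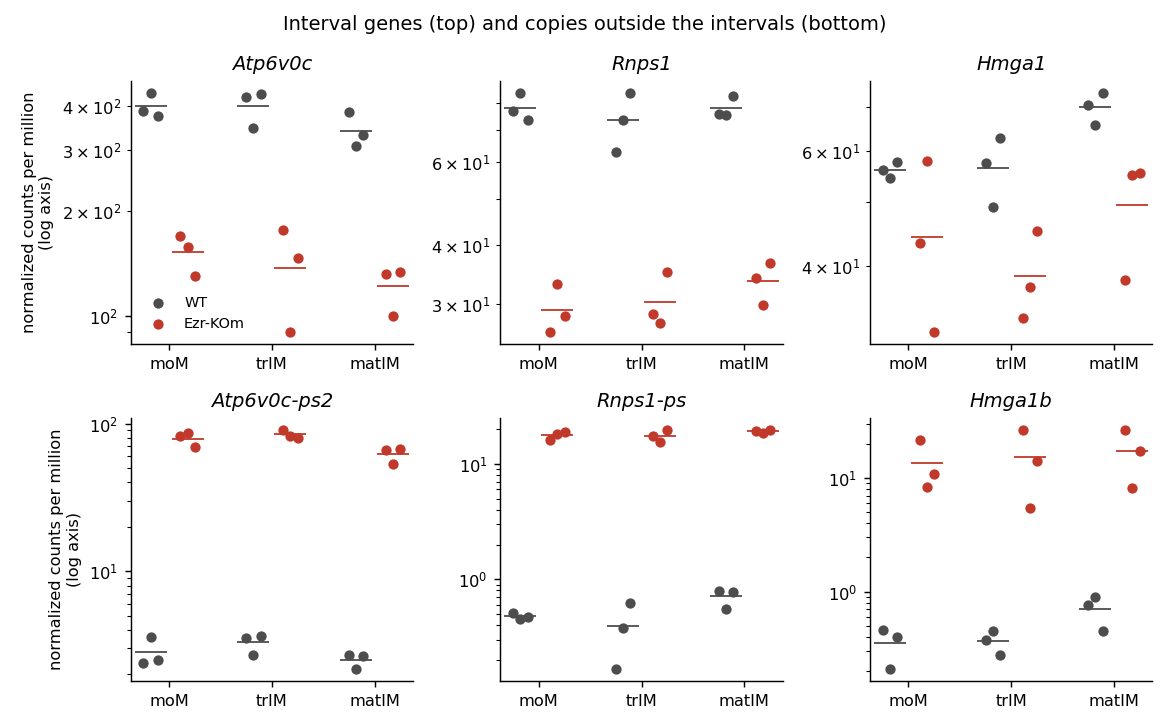
Normalized read counts (CPM) on a log axis of 3 genes in the chromosome 17 interval (top) and their copies on other chromosomes (bottom), by population and genotype (grey WT, red Ezr-KOm); points are libraries and horizontal marks the mean of 3. The copies were higher in all 9 Ezr-KOm libraries than in any WT library, while Atp6v0c and Rnps1 were lower in all 9.

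The 170 called genes outside the intervals with no such match made up 112 higher and 58 lower genes, with smaller changes. Their median log2 fold change was 0.63 for the higher genes (moMs 0.61, tnsIMs 0.56, matIMs 0.63) and -0.54 for the lower ones (-0.39, -0.57 and -0.53). Most were protein coding, 97 of the higher and 50 of the lower genes, and each direction held 5 immunoglobulin genes.

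*Kcnn4*, the calcium-activated potassium channel KCa3.1, was the lower gene outside the intervals with the smallest p. In moMs it was at 88.4, 99.9 and 118 CPM in WT and at 35.8, 41.5 and 27.2 in *Ezr*-KOm. In tnsIMs its levels were 168, 242 and 185 against 70.3, 75.6 and 43.1, and in matIMs 212, 250 and 241 against 95, 116 and 97.1. The genotypes were apart in each population, and the log2 fold change was -1.47 (adjusted p = 1.78e-08 in edgeR), or -1.40 (0.00455) with the libraries summed. *Ercc1*, a subunit of the XPF nuclease of DNA repair, was at 21.3, 24.7 and 21.2 CPM in WT moMs and 9.31, 8.83 and 8.29 in *Ezr*-KOm moMs. Its values in tnsIMs were 23.8, 34.9 and 17.8 against 11.9, 14.1 and 11.5, and in matIMs 24.2, 21.7 and 18.2 against 7.85, 8.7 and 8.89. Every *Ezr*-KOm library of *Ercc1* lay below every WT library (-1.22, SE 0.10, adjusted p = 1.23e-07 in edgeR).

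Other genes fell by less or from lower levels. *Emb*, embigin, a partner of monocarboxylate transporters, fell by 0.88 (adjusted p = 1.88e-06 in edgeR). *Tppp3*, a microtubule-bundling protein, fell by 0.73, and *Eno3*, the muscle enolase, by 0.97. *C5ar2*, the second receptor for complement C5a, fell by 1.28 (2.05 to 12.8 CPM in WT, 0.419 to 7.1 in *Ezr*-KOm). The insulin-degrading enzyme *Ide* fell by 0.44, the TGF-β family ligand *Gdf3* by 0.83 and *Glipr2* by 0.34. These genes were lower in 9 of 9 pairs of libraries with one population and number, where 2.19% of the genes tested outside had one sign in all 9. They were chosen by smallest p on these same libraries, which favours one sign, so the 2 shares are not like for like. The transcript *4930481A15Rik* was at 0.666 to 1.94 CPM in WT and 0.02 to 0.348 in *Ezr*-KOm (-3.23, adjusted p = 1.08e-06 in edgeR). *Glp1r*, the receptor for glucagon-like peptide 1, fell by 1.09, and the calpain *Capn11* was at 0.0634 to 1.97 CPM in WT and 0 to 0.13 in *Ezr*-KOm, where its highest count was 3. Both lie on chromosome 17 beyond the interval, *Glp1r* at 31120791 and *Capn11* at 45941130.

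Among the higher genes with no match, *Opa3*, a mitochondrial membrane protein, had the smallest p, with a narrow spread. It was at 81.4, 85.3 and 76.2 CPM in WT moMs and 135, 128 and 108 in *Ezr*-KOm moMs. In tnsIMs the libraries were at 82.9, 79.7 and 80.1 against 125, 127 and 109, and in matIMs at 79.2, 68.5 and 77.2 against 115, 122 and 92.9. All 9 *Ezr*-KOm libraries lay above all 9 WT libraries, at a log2 fold change of 0.57 (SE 0.06, adjusted p = 3.24e-06 in edgeR). *Opa3* was not called in either fit on summed libraries.

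*Cxcl13*, *Ptx3*, *Ccn5*, *Spon1* and *Adamts15*, which encode secreted proteins, were among the 12 higher genes with the smallest p. *Cxcl13*, the chemokine that attracts B cells, was low in moMs, at 1.02, 0.622 and 0.945 CPM in WT and 2.26, 1.85 and 1.41 in *Ezr*-KOm. In tnsIMs the values were 14.1, 27.3 and 18.6 against 30, 65.6 and 69.9, and in matIMs 130, 320 and 178 against 297, 806 and 759. *Cxcl13* was higher in *Ezr*-KOm in 9 of 9 pairs and overlapped between genotypes in matIMs (log2 fold change 1.45, adjusted p = 1.15e-05 in edgeR). With the libraries summed it was 1.42 (adjusted p = 0.543), or 1.43 with the block (0.0731).

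*Ptx3*, the long pentraxin, a soluble pattern-recognition molecule, was at 5.86, 4.14 and 6.42 CPM in WT moMs and 10.2, 15.9 and 12.5 in *Ezr*-KOm moMs. In tnsIMs *Ptx3* was at 15.3, 14.5 and 12.7 against 30.1, 29.5 and 30.9, and in matIMs at 20.8, 22.1 and 13.5 against 32.4, 30 and 27.8. Genotypes did not overlap in any population (0.99, adjusted p = 3.51e-05 in edgeR, 0.0483 with the libraries summed). *Ccn5*, a matricellular protein, rose by 1.28, the matrix protein gene *Spon1* by 0.57 and the metalloprotease gene *Adamts15* by 1.96. *Pdgfra*, the PDGF receptor of mesenchymal cells, rose by 1.24 from a WT median of 3.76 CPM. *Spic*, the transcription factor of iron-recycling macrophages, rose by 0.65 and *Slfn4*, a myeloid schlafen gene, by 0.77, both without overlap of genotypes in any population. *Cnbd2*, *Cdo1* and *Gm49980* rose by 2.06, 0.80 and 1.11.

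**Figure D4:**
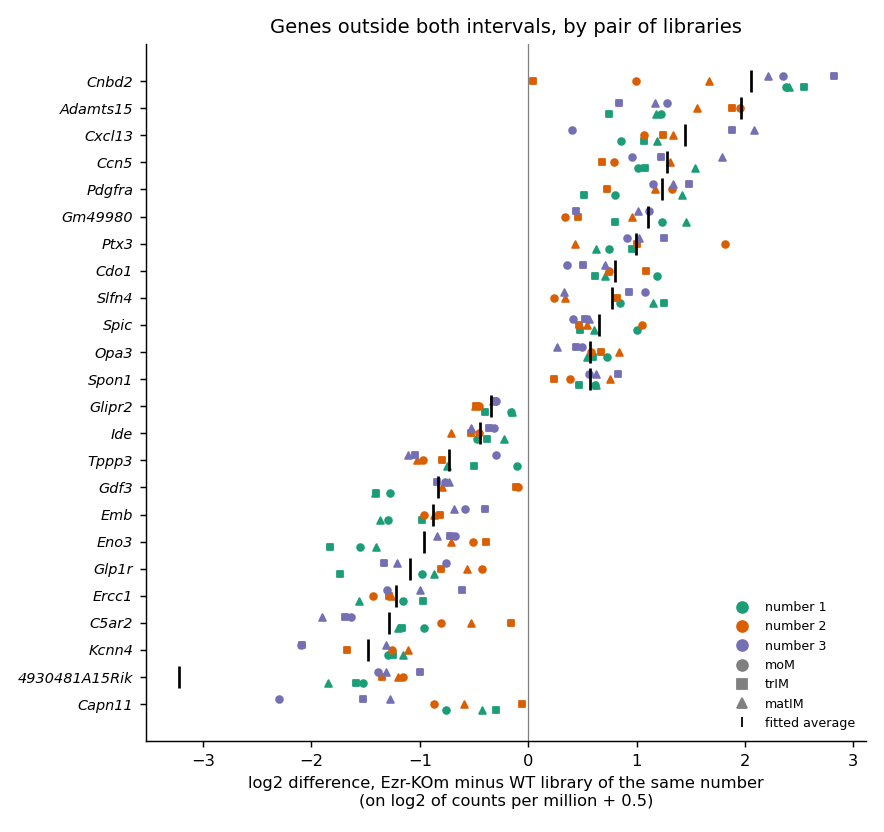
Log2 difference between the Ezr-KOm and the WT library of one population and number (horizontal axis, on log2 of CPM + 0.5) for the 24 named genes outside both intervals that match no interval gene (vertical axis); colours are replicate numbers, shapes populations and black ticks the fitted average, left out for Capn11, whose highest count in Ezr-KOm was 3; the added 0.5 CPM shrinks the differences of low genes. All 24 genes keep one sign in all 9 pairs, and they were chosen by smallest p on these same libraries.

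Several of these genes are neighbours, a pattern noticed after the values were seen. Of 269 windows of 10 Mb outside the intervals, 2 held 6 or more calls. Chromosome 7 between 10 and 20 Mb held 6 of 101 tested genes (5.94%), *Ercc1*, *Opa3*, *C5ar2*, *Sympk* (0.62), *Slc1a5* (-0.54) and *Fbxo46* (0.49), and the next 10 Mb held *Kcnn4*, *Irgc1* (-1.12) and *Smg9* (-0.31), or 3 of 146 (2.05%). Chromosome 12 between 110 and 120 Mb held 9 of 157 (5.73%), most of them immunoglobulin heavy chain genes. Next to the intervals, 2 of 208 genes were called on chromosome 17 between 30 and 40 Mb (0.962%) and 3 of 105 on chromosome 4 between 120 and 130 Mb (2.86%).

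Inside the chromosome 17 interval the calls ran along its whole length, with 13 of 45 genes in the first 10 Mb (28.9%), 6 of 48 in the next (12.5%) and 35 of 204 in the last (17.2%). *Gm50022* had a highest count of 2 in a WT library and stood at 5.66 to 52.9 CPM in *Ezr*-KOm. *Gm7805* was the reverse, at 0.82 to 3.02 CPM in WT with a highest count of 2 in *Ezr*-KOm. *Dynlt1b*, a dynein light chain, rose by 1.79 and *Tagap1*, a GTPase-activating protein, by 2.14, while *Tmem181b-ps* and *9030025P20Rik* rose by 1.91 and 2.14. *Synj2*, an inositol phosphatase, fell by 1.03. These genes did not overlap between genotypes in any population.

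Inside the chromosome 4 interval the calls held *Pdpn*, podoplanin, a membrane partner of the ERM proteins. It was at 39.6, 19.6 and 18.9 CPM in WT moMs and 11, 9.6 and 4.67 in *Ezr*-KOm moMs. In tnsIMs it was at 36.5, 15.2 and 21.1 against 8.81, 6.76 and 4.83, and in matIMs at 20.1, 7.26 and 11.7 against 4.3, 2.65 and 1.3. Genotypes were apart in each population (-1.86, SE 0.16, adjusted p = 2.83e-07 in edgeR, 0.224 with the libraries summed and 0.042 with the block). The nucleosome-binding *Hmgn2* fell by 1.24, the centrosomal *Cep85* by 1.83, the elongation factor gene *Tcea3* by 3.90 and *Padi4*, a protein-citrullinating enzyme, by 1.59. *Tnfrsf14*, the herpesvirus entry mediator, rose by 1.11, *Eya3* by 0.70, *Angptl7* by 2.17, *Zfp985* by 2.46 and *Id3*, an inhibitor of helix-loop-helix factors, by 0.47. *Tcea3*, *Angptl7* and *Zfp985* were low, at means of 2.42, 0.467 and 0.132 CPM in WT and 0.132, 2.06 and 0.687 in *Ezr*-KOm. Calls numbered 18 of 146 genes between 130 and 140 Mb (12.3%), 18 of 92 between 140 and 150 Mb (19.6%) and 5 of 88 between 150 and 160 Mb (5.68%).

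Calls were next made on 2 replicate numbers and measured in the number left out, which the fit had not used. This measure was added after the data were seen. The intervals, and with them the copies, were set with earlier results of these data known, so the left-out number was not unseen for those sets. In the chromosome 17 interval the genes kept their sign in the left-out number for 35 of 36 genes without number 1 (97.2%), 40 of 42 without number 2 (95.2%) and 31 of 31 without number 3 (100%), where all genes tested there did so for 69.0%, 67.1% and 71.2%. In the chromosome 4 interval it was 18 of 18, 42 of 48 and 19 of 19 (100%, 87.5% and 100%, against 69.6%, 61.7% and 60.0%). Outside genes that match an interval gene did so for 8 of 8, 11 of 12 and 8 of 8 (against 60.6%, 59.6% and 72.7% of all such genes tested). Those with no match did so for 83 of 116 (71.6%, against 55.4% of all such genes tested), 116 of 225 (51.6%, against 52.3%) and 52 of 64 (81.2%, against 54.1%). The outside genes with no match that were called on numbers 1 and 3 thus kept their sign in number 2 about as often as all such genes did.

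**Figure D5:**
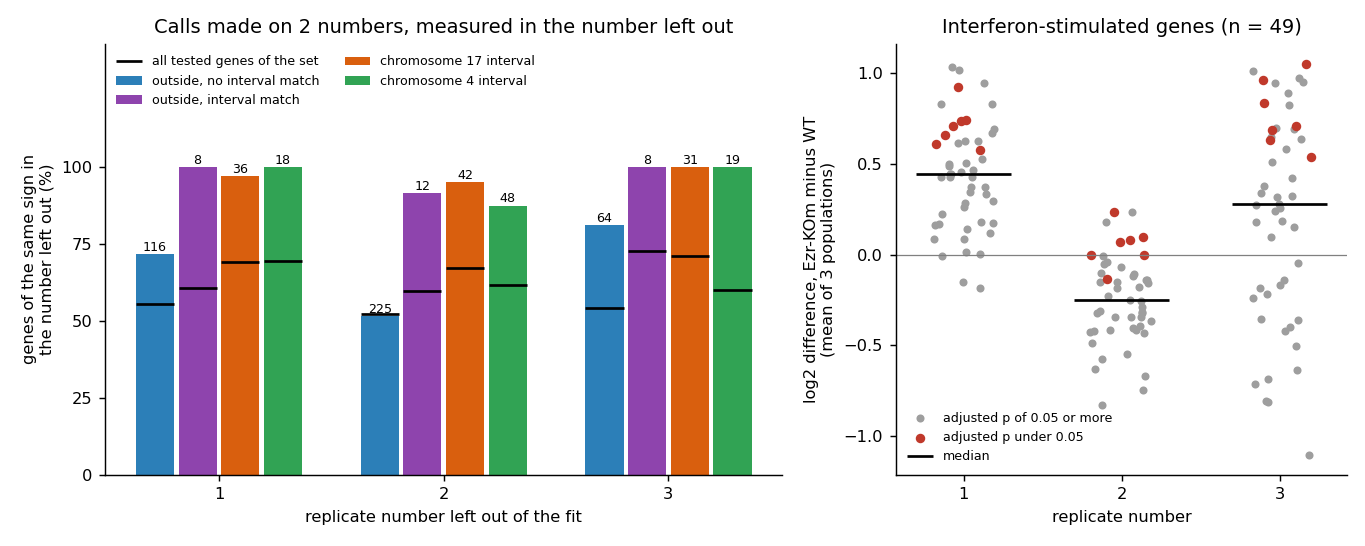
Left, share of genes (percent) called on 2 replicate numbers that kept their sign in the number left out (horizontal axis), by set, with the count called above each bar and a black line for all tested genes of the set. Right, log2 difference between Ezr-KOm and WT of each of 49 interferon-stimulated genes, as a mean of 3 populations, by replicate number; red points are the 7 called genes and the black line is the median, 0.44, -0.25 and 0.28.

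Interferon-stimulated genes were the list with the most calls. Of 49 tested, 7 rose and 0 fell (14.3% called, against 1.75% of all genes), with a median log2 fold change of 0.14 against 0.00 over all genes tested. They were the RNA helicase genes *Ddx60* (0.65) and *Ifih1* (0.41), the GTPase gene *Mx1* (0.52), the oligoadenylate synthetase genes *Oas1g* (0.52) and *Oasl1* (0.48), the antiviral *Rsad2* (0.53) and *Ifi44* (0.54). The list differed in direction between replicate numbers. Averaged over the populations, 46 of 49 genes were higher in *Ezr*-KOm in number 1 (median log2 difference 0.44), 6 of 49 in number 2 (-0.25) and 32 of 49 in number 3 (0.28). In number 2, 4 of the 49 were higher within moMs, 13 within tnsIMs and 24 within matIMs, while it was 45, 46 and 45 in number 1.

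*Oasl1*, a called gene, was higher in all 3 numbers on average and least so in number 2 (log2 difference 0.66, 0.08 and 0.69 in numbers 1, 2 and 3). In moMs it was at 130, 92.5 and 81.5 CPM in the WT libraries of numbers 1, 2 and 3 and at 220, 82.1 and 144 in *Ezr*-KOm. In tnsIMs it was at 177, 113 and 123 against 273, 141 and 189, and in matIMs at 159, 122 and 111 against 241, 131 and 173. *Ifit3* (1.02, -0.57 and 0.89 in numbers 1, 2 and 3) and *Isg15* (0.63, -0.29 and 0.51) changed sign between numbers and were not called. Without number 2, 27 of the Interferon-stimulated genes were called higher and 1 lower, while without number 1 it was 0 and 1, and without number 3 it was 0 and 0. Without the replicate block 2 were called, and with the libraries summed 0. The calls of *Ifi44*, *Rsad2* and *Ifih1* were lost in 14, 13 and 9 of 18 fits that each left out 1 library.

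Matrix genes and fibroblast markers held 5 and 3 calls. Of 45 extracellular matrix and protease genes, 4 rose and 1 fell (11.1% called, against 1.75% of all genes tested; median 0.17 against 0.00). Collagen *Col1a2* rose by 0.53, the collagen cross-linking enzyme *Lox* by 0.98, the collagenase *Mmp13* by 0.87 and the protease inhibitor *Serpina3n* by 0.60, while the metalloprotease *Mmp19* fell by 0.61, a call lost in 12 of 18 fits without 1 library. With the libraries summed 0 of the Extracellular matrix and proteases list were called, and without numbers 1, 2 and 3 the counts higher were 4, 3 and 1. Of 12 fibroblast markers 3 rose, *Col1a2*, *Inmt* (0.64) and *Pdgfra*, and 0 fell (25%, against 1.75% of all genes; median 0.50). Of the 12, 11 had a positive log2 fold change and 8 an unadjusted p under 0.05 in edgeR, against 12.8% of all genes. In each of replicate numbers 1, 2 and 3, 11 of the 12 were higher in *Ezr*-KOm (median log2 difference 0.40, 0.36 and 0.51). The sum of all 12 markers was higher in *Ezr*-KOm in 3 of 9 pairs of libraries, and that sum was mostly *Gsn*. Without *Gsn*, left out after its level was seen, it was higher in 8 of 9 pairs. That sum was 36.9 to 55.6 CPM in WT moMs and 65.2 to 84.5 in *Ezr*-KOm moMs, 142 to 163 and 159 to 236 in tnsIMs, and 24.9 to 42.8 and 41.8 to 48.5 in matIMs. No fibroblast marker was at 0 in most libraries, and the part of such RNA in the matrix genes, *Ccn5*, *Pdgfra* or *Adamts15* was not tested. In sorted bulk samples, fewer cells of a type cannot be told apart from less RNA per cell.

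Markers of other cells showed few calls. All 13 epithelial markers had a negative log2 fold change (median -0.28) and 0 were called in edgeR (4 at an unadjusted p under 0.05). Their sum was 3079 to 4710 CPM in WT tnsIMs and 2084 to 3874 in *Ezr*-KOm tnsIMs, with 138 to 164 and 91.5 to 231 in moMs and 593 to 663 and 379 to 560 in matIMs. By replicate number, 9, 1 and 3 of the 13 were higher in *Ezr*-KOm in numbers 1, 2 and 3 (median log2 difference 0.17, -0.39 and -0.57). Of 12 B and plasma cell markers 6 had a positive log2 fold change (median 0.01) and *Ighd* rose (0.74), and of 13 alveolar macrophage markers 5 had one (median -0.03) and the receptor gene *Marco* rose (0.77). Of 12 monocyte and macrophage markers 4 had a positive log2 fold change (median -0.06) and *Lyz2*, lysozyme of macrophages, fell by 0.31 (adjusted p = 0.0232 in edgeR), a call lost in 11 of 18 fits that each left out 1 library. None of the endothelial (12), neutrophil (13), T and NK cell (16) or dendritic cell (13) markers was called in edgeR, with 1, 1, 3 and 5 at an unadjusted p under 0.05. A positive log2 fold change was seen for 6, 9, 10 and 10 of them, at medians of -0.03, 0.01, 0.09 and 0.32. Of the 13 dendritic cell markers, 12, 7 and 11 were higher in *Ezr*-KOm in numbers 1, 2 and 3 (median log2 difference 0.32, 0.04 and 0.21).

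Lists of ezrin's known partners and pathways held few calls. Of 25 ERM proteins and membrane partners 2 fell, *Ezr* and *Pdpn*, both in the intervals, and 0 rose. Of 54 integrin and focal adhesion genes 0 were called in edgeR (8 at an unadjusted p under 0.05; median 0.01). *Itga1*, the collagen-binding integrin α1, was at -0.49 (adjusted p = 0.0754 in edgeR, 0.012 in DESeq2). *Pik3ap1*, an adaptor of PI3K, rose by 0.26 (adjusted p = 0.0438 in edgeR) and was the 1 call of 38 genes of the PI3K, Akt and mTOR list, a call lost in 14 of 18 fits without 1 library. Of 19 V-ATPase subunits *Atp6v0c* was called, and of 20 glycolysis enzymes *Eno3*.

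Proliferation genes held 1 call. Of 66 S phase genes 18 had a positive log2 fold change (median -0.11), against 50.3% of all genes tested. In replicate numbers 1, 2 and 3, 20, 31 and 13 of the 66 were higher in *Ezr*-KOm (median log2 difference -0.10, -0.04 and -0.19). Of the 66, 0 were called in edgeR and 9 had an unadjusted p under 0.05, a share near the 12.8% of all genes. Of 59 G2 and M phase genes *Pkmyt1*, a kinase that holds CDK1 inactive, was called (-0.70), and it lies in the chromosome 17 interval. *Ccnd1* was at -0.38, *Ccnd2* at 0.06, *Pola2* at -0.06 and *Pold2* at -0.10, none of them called. *Csf1*, the growth factor of macrophages, was at -0.15 (adjusted p = 0.688), with moMs at 0.05, tnsIMs at -0.45 and matIMs at -0.04.

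Of 47 inflammatory cytokine and chemokine genes 2 rose, *Cxcl13* and the interleukin 1 receptor antagonist *Il1rn* (0.28). Of the 47, 35 had a positive log2 fold change, against 50.3% of all genes tested, and 21 an unadjusted p under 0.05, against 12.8%. The call of *Il1rn* (adjusted p = 0.0481 in edgeR) was lost in 12 of 18 fits without 1 library. *Il6* was at 0.29, *Il1a* at 0.22 and *Cxcl2* at 0.11, none of them called. Of 33 interstitial macrophage genes the scavenger receptor genes *Cd163* (0.84) and *Marco* rose, and of 42 cell death and survival genes the formyl peptide receptor gene *Fpr2* rose (0.52), which lies in the chromosome 17 interval. None of 21 monocyte genes, 13 MHC class II presentation genes or 12 mitochondrially encoded genes was called in edgeR (3, 3 and 0 at an unadjusted p under 0.05). Of 23 immediate early and dissociation genes *Egr2* rose (0.27, adjusted p = 0.0498 in edgeR), and its call was lost in 14 of 18 fits without 1 library.

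Further genes that the study names were not called on the average over populations. The study compared the genotypes within single populations, and its criteria were a log2 fold change beyond 0.75 in size at an unadjusted p under 0.05. An average at an adjusted p is another measure, so these values do not test its statements. The same holds for *Csf1*, *Il6*, *Il1a*, *Cxcl2*, *Itga1*, *Ccnd1*, *Ccnd2* and *Pola2* above. *Irf1* was at -0.21, *Trp53* at -0.17, *Rhof* at -0.22, *Fblim1* at -0.66 and *Pdgfa* at -0.25. *Tgfb3* was at 0.57, *Adamts2* at 0.45, *Col1a1* at 0.51 (adjusted p = 0.18), *Col18a1* at 0.84 (0.104) and *Tnfrsf8*, which encodes CD30, at 0.49 (0.13).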

How the data were processed

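The authors sequenced SMART-Seq v4 and Nextera XT libraries, aligned them to GRCm39 with STAR 2.7.9a and the Gencode M29 annotation, and deposited raw read counts per gene, which are the values used here. Which strand column they took is not given in the sources used here.

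Counts were tested with edgeR 4.0.16 in R 4.3.3. Genes were kept by filterByExpr over the 6 groups (minimum count 10; 15811 of 21254), normalized by TMM, and fitted with population, replicate number as a block and genotype. Whether the study used a block is not given in the sources used here. The replicate block was set in the plan of the fit, which takes the numbers to pair the samples. Every same-numbered pair correlated above 0.1 between genotypes within a population. The block is part of every result unless stated. DESeq2 1.42.0 and limma 3.58.1 were alternatives. No 2 libraries of one group held identical counts over the genes tested. The scripts were tested on simulated counts. Counting error, library depth and the pseudocount of 0.5 CPM bear on low genes. Transcripts of outside genes were matched to interval genes with BLAST, both from Gencode M39.

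Named genes were *Ezr*, *Msn* and *Rdx*, outside the intervals the 12 higher and 12 lower genes of smallest p with no match, and up to 6 each way with one, 5 per direction in each interval, called list members and genes the study names. *Sympk*, *Slc1a5*, *Fbxo46*, *Irgc1*, *Smg9*, *Ifit3*, *Isg15*, *Gm5855*, *Gm6724*, *Nudc-ps1*, *Dynlt1-ps1* and the parents of copies were named after their values were seen. The members, intervals and lists were chosen with earlier results of these data known. The result of 1 gene list is not reported here.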

Additional observations from a re-analysis of the deposited data

How the results depend on the processing

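Counts called over all genes, outside both intervals, on chromosome 17 and on chromosome 4 were 276, 181, 54 and 41. With no replicate block 157 and 84 were called over all genes and outside. With libraries summed per genotype and number the counts were 30, 9, 15 and 6, or 33, 12, 16 and 5 with the block. DESeq2 called 473 over all genes and 352 outside, and the study's rule (unadjusted p under 0.05 and an absolute log2 fold change above 0.75) called 301 outside. Without moMs the counts were 122, 69, 31 and 22, without tnsIMs 155, 93, 35 and 27, and without matIMs 104, 52, 29 and 23. Leaving out one number or library gave 123 to 328 over all genes, 73 to 238 outside, 31 to 50 on chromosome 17 and 18 to 48 on chromosome 4. Of the 181 outside genes, 84 remained without the block, 172 in DESeq2, 173 in limma, 93 without number 2 and 53 without number 3. The cause was not tested.

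*Ezr* was at -1.46 without matIMs, its smallest change, and was called in every fit, and the interaction stayed at 0. The 72 called named genes gave 2577 values over the other fits, of which 0 changed sign and 345 missed the threshold. These genes were called on libraries that the other fits reuse, which favours a kept sign, so this count lends the calls no support. Some genes that were not called changed sign. *Msn* was at -0.0045 with libraries summed without the block, -0.0078 with it, -0.0020 in limma, -0.0049 in DESeq2 and with RLE size factors, -0.0022 with at least 10 counts in every library, -0.015 without moMs, -0.0075 without tnsIMs and between -0.044 and 0.035 with one number or library left out. Without tnsIMs *Csf1* was at 0.0097 and *Pold2* at 0.039, without matIMs *Pola2* was at 0.046, and with one number or library left out *Rdx* lay between -0.016 and 0.15, *Ccnd2* between -0.019 and 0.16 and *Pold2* between -0.17 and 0.0087.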
